A study of Mus musculus with 2 samples.

Results

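Teneurins, latrophilins and FLRT proteins are 3 families of cell-surface molecules that bind one another across the contact between cells. They are encoded in the mouse by 10 genes: the teneurins Tenm1, Tenm2, Tenm3 and Tenm4, the latrophilins Adgrl1, Adgrl2 and Adgrl3, and the fibronectin leucine-rich transmembrane genes Flrt1, Flrt2 and Flrt3. These genes were chosen by name and not by any measured value, though with earlier results of these data known. They make up 10 of the 55536 annotated genes in the deposited tables and 105 of the 141767 annotated transcripts. The RNA came from left cerebral cortex tissue of 2 females, aged 36 days, of the strain B6CASTF1/J, whose parents are the inbred strains C57BL/6J and CAST/EiJ. The labels put both libraries in 1 group with no treatment, name a different animal for each, and give 1 library per mouse, so values are given as mean ± SD over 2 mice (SD, n = 2) and no p-value was computed. Libraries were stranded, took 300 ng of RNA with ribosomal RNA reduced, and had ERCC spike-ins added.

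Teneurins are very large single-pass proteins that carry EGF-like repeats, a beta-propeller and a barrel-shaped domain outside the cell. Latrophilins are adhesion G protein-coupled receptors whose lectin-like and olfactomedin domains hold a teneurin and an FLRT protein, and the first of them was found as a receptor for a toxin of black widow venom. FLRT proteins carry leucine-rich repeats, bind latrophilins and also bind the Unc5 receptors of axon guidance. In the cortex and hippocampus these molecules are known for matching synaptic partners, for synapse assembly, and for the placement of migrating neurons. Short alternative exons at the binding surfaces of teneurins and latrophilins are known to alter which partner is held and how tightly.

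The tissue carried the markers that its label implies. All 5 excitatory neuron markers, all 6 inhibitory neuron markers and all 11 markers of cortical layers had a level of at least 1 TPM (a share of all transcripts, corrected for length and scaled to a fixed total) in both libraries. Expected counts over all rows came to 29417186 in replicate 1 and 35188766 in replicate 2. Choroid plexus markers summed to 72.8 TPM in replicate 1 and 9.89 TPM in replicate 2. Of this Ttr had 70.1 and 8.29 TPM, while Kcne2 of the same list had at most 4 counts. The 4 striatum markers (Drd1, Drd2, Adora2a and Gpr6) summed to 25.2 and 26.5 TPM. Bulk RNA does not separate fewer cells of a type from less RNA per cell, and this holds for every level below.

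All 10 genes were expressed, and all 10 had at least 10 TPM in both mice. Latrophilin RNA was the most abundant of the 3 families, with a summed level of 354 TPM in replicate 1 and 317 TPM in replicate 2 (335 ± 26.6, SD, n = 2). Teneurins summed to 156 and 135 TPM (145 ± 15.2), and FLRT genes to 69.5 and 55.6 TPM (62.5 ± 9.83). The 3 ranges did not overlap. Latrophilins therefore made up 61.8% ± 0.98 of the summed level of the 10 genes, teneurins 26.7% ± 0.26 and FLRT genes 11.5% ± 0.72. The second transcript table, made by another quantifier, gave the same order of families at higher levels, with 472 ± 16.0 TPM for latrophilins, 188 ± 4.27 for teneurins and 89.7 ± 7.41 for FLRT genes.

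**Figure D1:**
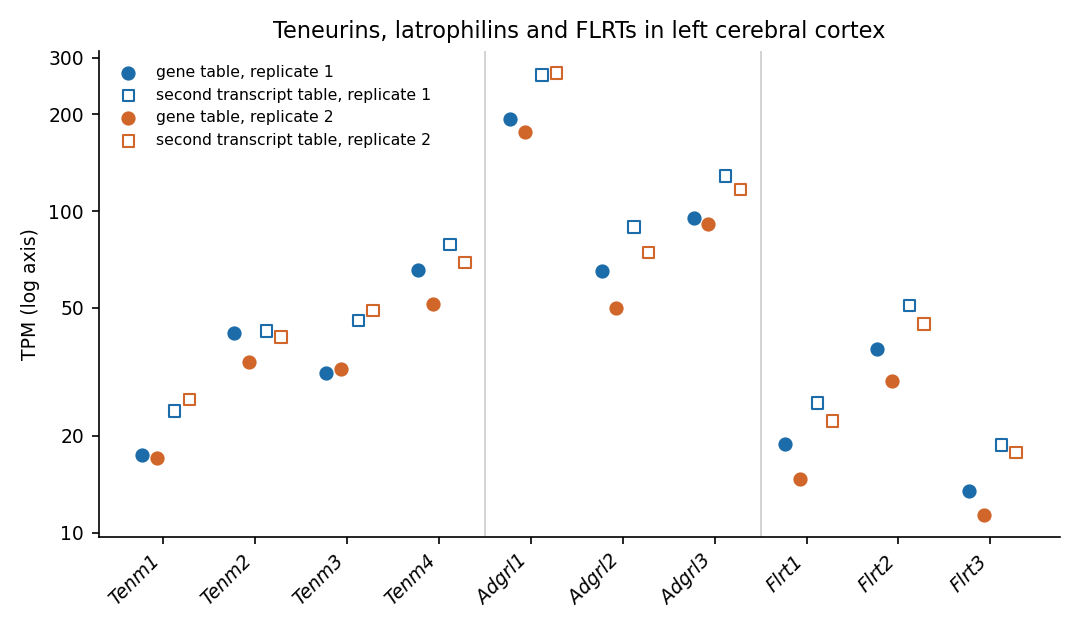
Level of each gene in TPM on a log axis, with filled circles for the gene table and open squares for the second transcript table, blue for replicate 1 and orange for replicate 2; grey lines separate the families. Adgrl1 lies above all other members in every library and table, and the second table lies above the first for each gene's mean, by 1.09 to 1.49 times.

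Tenm4 was the most abundant teneurin in both mice. Tenm4 (chr7:96171246-96911093, plus strand, mm10) had 65.5 TPM in replicate 1 and 51.4 TPM in replicate 2 (58.5 ± 9.998), and held 40.1% ± 2.68 of the teneurin level. Tenm2 (chr11:36006656-37235964, minus strand) had 41.9 and 33.9 TPM (37.9 ± 5.59). Tenm3 (chr8:48227682-48843951, minus strand) had 31.3 and 32.2 TPM (31.8 ± 0.59). These levels put Tenm4 above Tenm2 and Tenm3 in both mice, while Tenm2 and Tenm3 were 1.34-fold apart in replicate 1 and 1.05-fold apart in replicate 2. In the second transcript table the order of that pair turned, with Tenm2 at 41.4 ± 1.26 TPM and Tenm3 at 47.4 ± 2.36 TPM. Tenm1 (chrX:42527866-43429126, minus strand), the X-linked member, was the lowest teneurin at 17.4 and 17.1 TPM (17.2 ± 0.22), and Tenm4 stood 3.77-fold and 3.01-fold above it. All 4 teneurin genes are long, from 616 kb for Tenm3 to 1229 kb for Tenm2, where the median protein-coding gene expressed in this tissue spans 26.1 kb.

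A 21-base exon of the beta-propeller region occurs in all 4 teneurins, and it is shown because its inclusion is known to alter binding to latrophilins. In each gene it lies between exons of 250 and 233 bases. Below, capitals mark the exon and lower case the 15 bases of spliced reference transcript (GENCODE M21, mm10) on either side, read 5′ to 3′ along the gene's own strand.
Tenm1: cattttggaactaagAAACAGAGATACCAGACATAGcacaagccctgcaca
Tenm2: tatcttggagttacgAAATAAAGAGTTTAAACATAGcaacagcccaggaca
Tenm3: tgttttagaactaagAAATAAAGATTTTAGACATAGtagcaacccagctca
Tenm4: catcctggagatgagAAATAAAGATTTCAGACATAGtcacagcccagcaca
The Tenm3 and Tenm4 exons matched at 20 of 21 bases and the Tenm1 and Tenm2 exons at 14 of 21, the closest and the least alike of the 6 pairs. The exons lie at chrX:42648394-42648414 in Tenm1, chr11:36054926-36054946 in Tenm2, chr8:48287133-48287153 in Tenm3 and chr7:96854717-96854737 in Tenm4, all within the coding sequence.

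The 21-base exon was on most teneurin RNA. The measure is the share of TPM on transcripts that contain the exon, among the gene's transcripts that reach past both of its ends, and it rests on how the authors' quantifiers divided reads among annotated transcripts, since reads across single splice junctions are not in the tables. In Tenm3 the share was 89.5% in replicate 1 and 96.0% in replicate 2 (92.7% ± 4.58), and 74.4% and 84.0% in the second transcript table. In Tenm4 it was 92.7% and 92.6% (92.7% ± 0.10), and 89.5% and 90.1% in the second table. Tenm4 thus barely differed between the mice, while Tenm3 was lower in replicate 1 in both tables when all spanning transcripts were counted. In the first table that direction rested on the retained-intron model Tenm3-205, at 2.09 and 0 TPM: on protein-coding transcripts alone the Tenm3 share was 97.4% and 96.0%, and 88.1% and 90.3% in the second table. For Tenm1 the share was 100% because the 1 annotated transcript that skips the exon, Tenm1-202, was listed at 0. For Tenm2 it was 100% by annotation, as all 3 spanning transcripts contain it.

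A further short exon of the teneurins lies near the EGF-like repeats, between exons of 186 and 147 bases. It is 24 bases in Tenm1 (chrX:42727337-42727360) and 27 bases in Tenm3 (chr8:48313238-48313264) and Tenm4 (chr7:96805105-96805131), and the set is printed to show how closely the last pair agrees, in the same letter code as above.
Tenm1: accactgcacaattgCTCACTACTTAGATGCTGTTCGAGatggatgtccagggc
Tenm3: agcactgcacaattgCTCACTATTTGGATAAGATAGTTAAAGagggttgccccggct
Tenm4: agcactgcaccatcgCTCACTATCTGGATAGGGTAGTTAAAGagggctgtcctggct
Tenm3 and Tenm4 matched at 24 of the 27 bases, with 50 of the 60 bases before it and 47 of the 60 after it alike. Tenm3 transcripts carried the exon at 97.4% and 96.0% (96.7% ± 1.02). Tenm4 transcripts carried it at 85.1% and 84.8% (84.9% ± 0.16), below both Tenm3 values. In the second table the Tenm3 values were 88.1% and 90.3% and the Tenm4 values 80.3% and 79.5%, again with no overlap. On protein-coding transcripts alone Tenm4 was at 92.7% and 92.6% in the first table. In the second it was at 89.5% and 90.1%, where the Tenm3 and Tenm4 ranges overlapped. On protein-coding transcripts the shares of this exon and of the 21-base exon were identical within Tenm3 and within Tenm4, in both tables. The same coding transcripts carry both exons, so the annotation ties these shares. They are therefore not separate measurements of the use of each exon. In Tenm1 all 3 spanning transcripts contain the 24-base exon, so its share of 100% is fixed by the annotation.

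**Figure D2:**
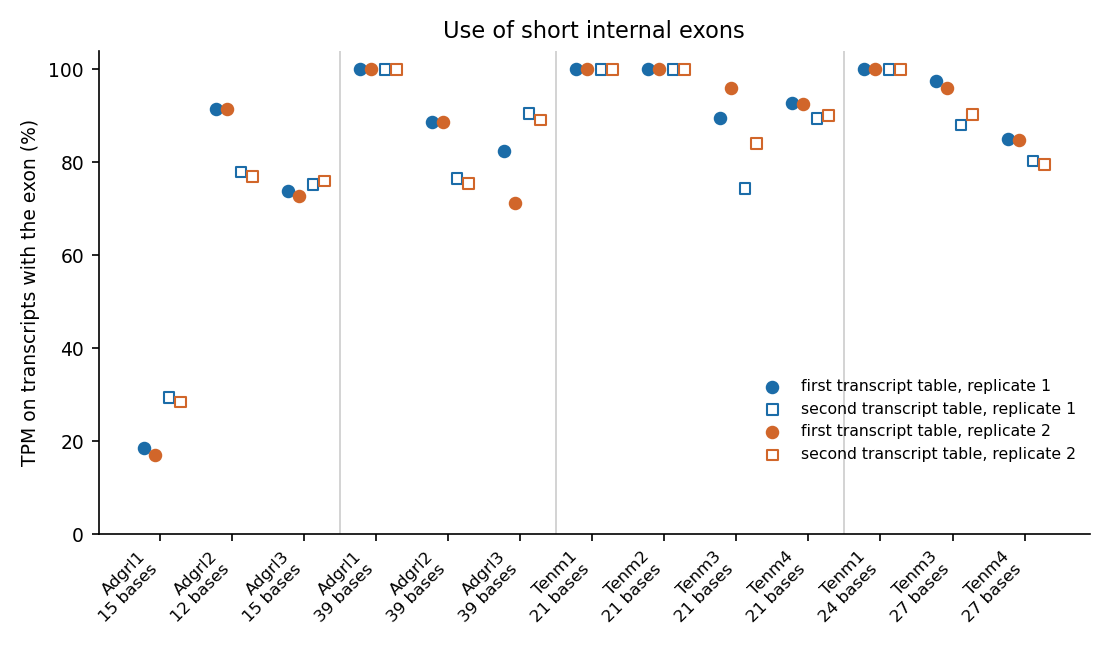
Share of TPM on transcripts with each short exon, in percent, for the latrophilin exon that splits the lectin-like and olfactomedin regions, the latrophilin 39-base exon, the teneurin 21-base exon and the teneurin 24- or 27-base exon (groups separated by grey lines). Filled circles are the first and open squares the second transcript table, blue is replicate 1 and orange replicate 2; the Adgrl1 15-base exon lies between 17.0% and 29.4%, and all others shown lie above 70%.

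Full-length teneurin transcripts held nearly all reads but a smaller part of the TPM. For Tenm4 the transcript Tenm4-203 of 13172 bases held 38.3% and 44.7% of the gene's TPM, while Tenm4-209, a 704-base fragment model annotated as coding, held 24.2% and 26.9%. Transcripts under 1000 bases took 39.1% of the Tenm4 TPM and 2.89% of its expected counts. TPM divides by length, so few reads on a short model give a high value: a 397-base Tenm4 model, Tenm4-205, had 10.9 and 4.83 TPM from 60.5 and 36.4 counts, and was listed at 0 in the second table. For Tenm2 a 368-base model, Tenm2-207, behaved alike, with 28.1% and 21.9% of the TPM in the first table, from 59.2 and 50.6 counts, and 3.37% and 0% in the second. The leading Tenm2 transcript, Tenm2-202 of 9908 bases, held 50.9% and 56.4% of TPM and 85.1% of counts. Leaving out transcripts under 1000 bases brought the teneurin sum to 109.6 TPM, Tenm4 to 35.5 TPM and Tenm2 to 28.0 TPM, with Tenm3 at 28.9 TPM.

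In Tenm3 transcripts under 1000 bases took 9.001% of the TPM, and Tenm1 has no annotated transcript that short. Tenm3-201, of 8961 bases, held 73.3% and 76.2% of the Tenm3 TPM. Tenm1-203, of 12879 bases, held 46.5% and 54.5% of the Tenm1 TPM, and Tenm1-204, a 1143-base processed transcript, 31.6% and 32.9%. By expected counts Tenm1-203 held 80.7% ± 5.90 and Tenm1-204 held 4.21%.

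**Figure D3:**
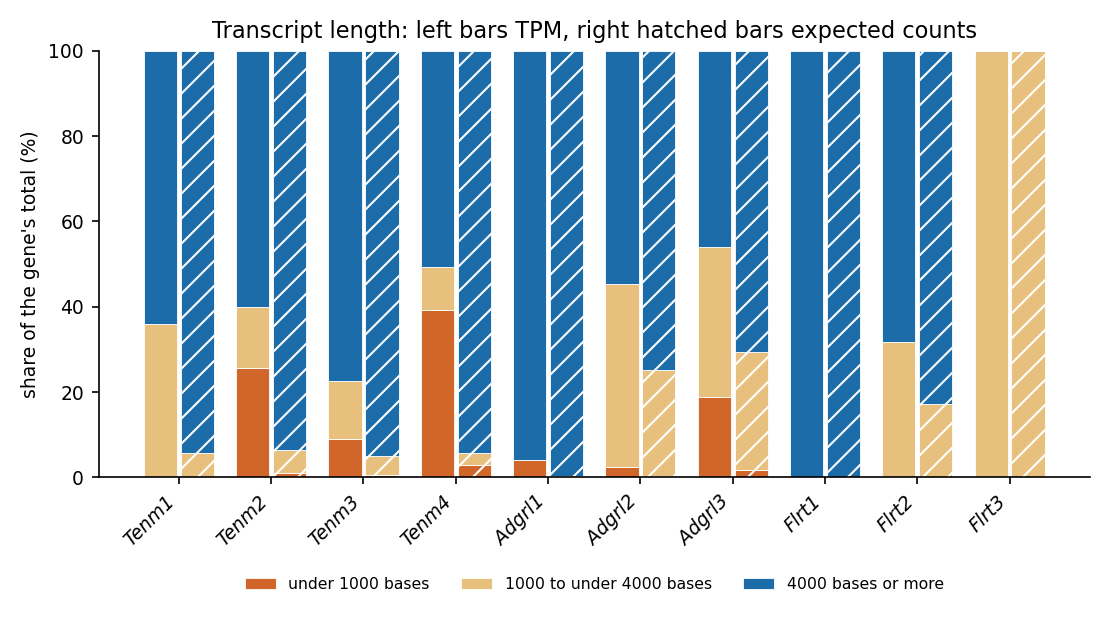
Mean share over the 2 mice of each gene's TPM (left bars) and expected counts (right, hatched bars) on transcripts under 1000 bases, 1000 to under 4000 bases, and 4000 bases or more, in the first transcript table. Short transcripts take 39.1% of Tenm4 TPM and 25.7% of Tenm2 TPM but at most 2.89% of any member's counts.

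Among the receptors, Adgrl1 led in every library. Adgrl1 (chr8:83900105-83941954, plus strand), the founding latrophilin, had 194 TPM in replicate 1 and 176 TPM in replicate 2 (185 ± 12.8), above 97.3% of the nuclear protein-coding genes expressed in both mice. Adgrl3 (chr5:81020138-81825133, plus strand) had 95.4 and 91.0 TPM (93.2 ± 3.08). Adgrl2 (chr3:148815583-148990555, minus strand) had 65.1 and 49.9 TPM (57.5 ± 10.7). The order Adgrl1, Adgrl3, Adgrl2 held in both mice with no overlap, and Adgrl1 stood 1.98 ± 0.07 times above Adgrl3 and 3.25 ± 0.38 times above Adgrl2. Adgrl1 is also by far the most compact of the receptor genes, at 41.9 kb against 175 kb for Adgrl2 and 805 kb for Adgrl3.

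The latrophilins share a very short exon between the parts that code for the lectin-like and olfactomedin domains, and it is shown because this insert is known to weaken teneurin binding. In all 3 genes it lies between exons of 110 and 801 bases, with 15 bases in Adgrl1 (chr8:83926262-83926276) and Adgrl3 (chr5:81509724-81509738) and 12 bases in Adgrl2 (chr3:148860427-148860438). Capitals mark the exon.
Adgrl1: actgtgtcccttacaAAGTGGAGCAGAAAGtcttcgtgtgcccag
Adgrl2: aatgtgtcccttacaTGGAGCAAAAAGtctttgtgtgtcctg
Adgrl3: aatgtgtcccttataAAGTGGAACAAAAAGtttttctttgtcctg
The Adgrl1 and Adgrl3 exons matched at 13 of 15 bases, and the Adgrl2 exon matched the last 12 bases of either at 11 of 12. The 60 bases before the exon were alike at 50 positions between Adgrl1 and each of the other two, and the 60 bases after it at 36 between Adgrl1 and Adgrl2 but at 24 between Adgrl1 and Adgrl3.

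Use of this exon differed between the receptors. Adgrl1 transcripts carried it at 18.6% in replicate 1 and 17.0% in replicate 2 (17.8% ± 1.14), and at 29.4% and 28.4% in the second transcript table. Adgrl2 transcripts carried it at 91.5% in both mice, and at 77.9% and 77.0% in the second table. Adgrl3 transcripts carried it at 73.8% and 72.9% (73.3% ± 0.64), and at 75.2% and 76.0% in the second table. The most abundant receptor was thus mostly without the insert and the others mostly with it, in both mice and both tables. Among protein-coding transcripts alone the shares in the first table were 16.6% for Adgrl1, 91.5% for Adgrl2 and 100% for Adgrl3. The 100% arose because the 1 coding spanning transcript of Adgrl3 without the exon, Adgrl3-201, was listed at 0 in the first table. In the second table the Adgrl3 coding share was 98.9% and 99.1%. The leading Adgrl1 transcript, Adgrl1-207, lacks the exon, and Adgrl1-201 contains it as exon 5 of 24.

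A 39-base exon in the stretch ahead of the membrane-spanning part, between exons of 186 and 184 bases in all 3 latrophilins, was in most RNA of each. Adgrl1 transcripts all carried it, as annotated. Adgrl2 transcripts carried it at 88.7% and 88.8%, and Adgrl3 transcripts at 82.4% and 71.2%, with 76.5% and 75.5% and then 90.6% and 89.1% in the second table. The order of Adgrl2 and Adgrl3 therefore turned between the tables.

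Short exons nearer the end of the latrophilin coding sequence were more mixed. A 45-base exon of Adgrl2 (chr3:148827541-148827585) was at 60.5% and 54.8%, with 54.8% and 49.5% in the second table. A 27-base exon downstream of it was at 5.80% and 8.26%, with 11.7% ± 0.45 in the second table. A 27-base exon of Adgrl3 (chr5:81757986-81758012) was at 39.1% and 35.9%, with 53.6% and 49.1% in the second table, and at 25.4% ± 0.39 on protein-coding transcripts of the first. An 18-base exon (chr8:83937916-83937933) was at 99.9% and 99.6% in Adgrl1, and at 100% in the second table. An 18-base exon of Adgrl3 (chr5:81792361-81792378) was at 13.6% and 12.6%, with 3.78% and 7.46% in the second table. A 52-base form with the same start (chr5:81792361-81792412) begins with the same 18 bases and is counted apart. This longer form was at 17.65% and 26.97%, with 22.78% and 29.02% in the second table. The share of the 18-base form therefore does not give the share of RNA that lacks these 18 bases. Over the 10 genes the annotation held 25 coding internal exons of 3 to 60 bases, in 7 genes. Of these, 21 are absent from at least 1 spanning transcript, and 17 of the 21 have a length that is a multiple of 3, which leaves the reading frame in place.

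Isoform makeup set the latrophilins apart from one another. Adgrl1-207, of 8181 bases, held 77.7% and 78.7% of the Adgrl1 TPM. In Adgrl2 the lead by TPM changed with the mouse in the first table only. There Adgrl2-214, of 4670 bases, held 28.8% and 24.3%, and Adgrl2-203, a 3-exon model of 2151 bases, 27.1% in both. In the second table Adgrl2-214 led in both mice, at 22.2% in each, against 14.9% and 13.4% for Adgrl2-203. By expected counts Adgrl2-214 also led in both, at 38.6% and 32.4% against 16.3% and 16.2%. Adgrl3, with 35 annotated transcripts, had no transcript above 15% of TPM in the first table, and its lead, Adgrl3-228, is a retained-intron model at 14.7% and 14.9%. In the second table the lead was Adgrl3-223, a transcript annotated for nonsense-mediated decay, at 20.1% and 18.4%. By expected counts of the first table the lead was a protein-coding transcript, Adgrl3-217, at 13.9% and 14.3%. Adgrl3-228 held 10.7% and 11.7% of those counts. Retained-intron and decay models together took 42.2% of the Adgrl3 TPM in the first table and 64.1% in the second, against 2.63% and 7.34% for Adgrl1. Protein-coding transcripts took 39.6% and 31.2% of the Adgrl3 TPM.

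FLRT RNA came mostly from Flrt2. Flrt2 (chr12:95692226-95785215, plus strand) had 37.3 TPM in replicate 1 and 29.5 TPM in replicate 2 (33.4 ± 5.47), or 53.4% ± 0.35 of the family. Flrt1 (chr19:7092001-7105729, minus strand) had 18.8 and 14.7 TPM (16.8 ± 2.90). Flrt3 (chr2:140650914-140671469, minus strand) had 13.4 and 11.3 TPM (12.4 ± 1.46) and was the lowest of the 10 genes. Flrt2 stood 2.00 ± 0.02 times above Flrt1 and 2.69 ± 0.12 times above Flrt3, and the family shares moved by under 2 points between the mice. The FLRT genes are simple in structure: Flrt1 has 1 annotated transcript, Flrt2 has 2 and Flrt3 has 3. Flrt2-201, of 7099 bases, held 70.6% and 66.0% of the Flrt2 TPM, and Flrt3-202, of 3977 bases, held 83.0% and 88.7% of the Flrt3 TPM.

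Placed in order of mean level, the genes ran Adgrl1, Adgrl3, Tenm4, Adgrl2, Tenm2, Flrt2, Tenm3, Tenm1, Flrt1, Flrt3. A neighbouring pair counted as separate when the values of the 2 mice did not overlap and the second transcript table gave the same order in both mice. By this rule 5 of the 9 neighbouring pairs were separate: Adgrl1 from Adgrl3, Adgrl3 from Tenm4, Adgrl2 from Tenm2, Tenm3 from Tenm1, and Flrt1 from Flrt3. The pairs Tenm4 and Adgrl2, Tenm2 and Flrt2, Flrt2 and Tenm3, and Tenm1 and Flrt1 were not separate. Across all expressed nuclear protein-coding genes the median level was 15.3 TPM, so Flrt3 alone lay below it.

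The difference between the mice was small for every member. Ratios are log2 of replicate 2 over replicate 1 from expected counts with TMM library sizes, and each interval is a 95% exact binomial interval that covers counting error only. None of the 10 genes was 2-fold apart, beside 0.706% of the 12613 annotated genes whose mean count reached 100. At a log2 ratio of at least 0.32, 1 of the 10 was higher in replicate 2, where 6.42% of all counted genes were, and none was lower by as much, where 5.91% were. The median ratio of the members was 0.06, beside 0.04 for all counted genes.

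The largest ratio was that of Tenm3, with 4158 counts in replicate 1 and 5946 in replicate 2 and a ratio of 0.32 (0.27 to 0.38), which sat just past that line. Tenm1, with 2526 and 3550 counts, was just short of it at 0.30 (0.22 to 0.37). Tenm2, at 0.11 (0.05 to 0.17), and Tenm4, at 0.06 (0.02 to 0.10), stayed inside the middle 50% of all counted genes, which ran from -0.09 to 0.16. All 4 teneurins were therefore at or above the median of all genes, and 2 of them beyond the upper quartile. Adgrl1, with the most reads (26602 and 32540), had a ratio of 0.10 (0.07 to 0.12) and Adgrl3 of 0.05 (0.00 to 0.10). Adgrl2 was lower in replicate 2 at -0.13 (-0.19 to -0.07), as were Flrt2 at -0.14 (-0.20 to -0.08) and Flrt1 at -0.11 (-0.20 to -0.02). Flrt3, with 946 and 1092 counts, had 0.01 (-0.11 to 0.14). Counting intervals excluded 0 for 9 of the 10 genes, where they did so for 47% of all counted genes. These shares are not matched for depth. Intervals narrow with read number, and members had 946 to 32540 counts where the counted genes start at a mean of 100. By size, 5 of the 10 ratios lay inside the middle 50% of all counted genes. The intervals cover neither the spread between animals nor that between libraries, which 1 library per mouse cannot separate.

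**Figure D4:**
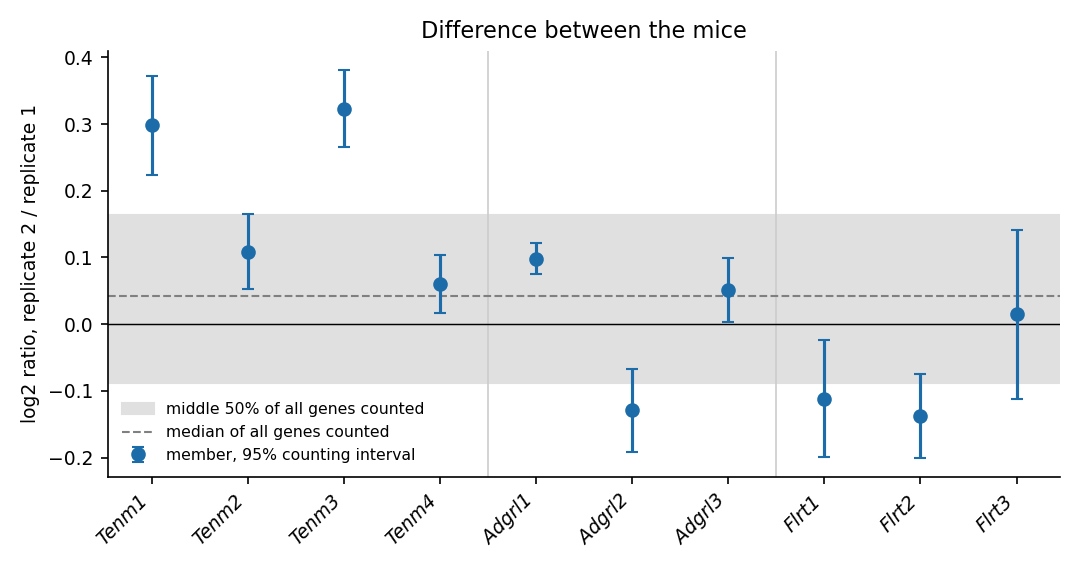
Log2 ratio of replicate 2 over replicate 1 for each gene, with the 95% counting interval as bars; the grey band is the middle 50% of the 12613 genes counted and the dashed line their median of 0.04. Tenm1 and Tenm3 lie above the band, and Adgrl2, Flrt1 and Flrt2 lie below it.

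The sign of these ratios depended on the scale. With the spike-in total as the reference, the median of all counted genes moved from 0.04 to -0.42, and all 10 members had negative ratios, from -0.14 for Tenm3 to -0.60 for Flrt2. Relative to that shift Tenm3 stayed at 0.28 and Flrt2 at -0.18. Deposited TPM was lower in replicate 2 for 9 of the 10 members, all but Tenm3, and for 83.5% of the expressed nuclear protein-coding genes. Some marker lists moved between the mice as well. The 4 striatum markers were all higher in replicate 2, by 0.16 to 0.54, though the interval of Drd1 included 0. All 5 astrocyte markers were also higher, by 0.13 to 0.23 (summed level 348 and 324 TPM). The 3 of 4 meningeal fibroblast markers whose mean count reached 100 were higher by 0.17 to 0.34 (summed level 24.98 and 24.24 TPM). Lum, the other marker of that list, had 42 and 37 counts and a ratio of -0.36. Excitatory neuron markers ran from -0.24 to 0.31, with 3 higher and 2 lower. Inhibitory neuron markers ran from -0.06 to 0.30, with 4 higher and 2 lower. Of the 5 oligodendrocyte markers 4 were lower, with ratios from -0.34 to 0.02 and a summed level of 1990 and 1485 TPM, and Ttr of the choroid plexus was at -2.82. The part of these cells and tissues in the members' ratios was not tested.

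Binding and signalling partners of the families were present throughout. All 21 genes of this list had at least 1 TPM in both mice, with a median of 36.8 ± 2.37 TPM, close to the median of 35.6 TPM over the 10 members. None of the 20 whose mean count reached 100 was 2-fold apart between the mice, and 11 were higher and 9 lower in replicate 2, with a median ratio of 0.02. Among the Unc5 receptors, which bind FLRT proteins, Unc5a had 43.1 and 39.04 TPM, Unc5d 18.7 and 18.6 TPM, Unc5c 14.7 and 11.1 TPM and Unc5b 6.29 and 5.46 TPM. Unc5a was the highest of the 4 in both mice, and lay above Flrt2 in each. Nrxn2 and Nrxn3 encode presynaptic neurexins, a family that binds latrophilins, and had 263 and 258 TPM and 110 and 86.9 TPM, each above every teneurin. Of the Shank scaffold genes, whose proteins bind the latrophilin tail, Shank1 had 300 and 238 TPM, Shank3 98.6 and 79.3 TPM and Shank2 72.3 and 54.0 TPM. Gpc3, a glypican that binds Unc5 receptors, was lowest of the list with a mean of 1.42 ± 0.24 TPM.

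Signalling genes of the list ranged widely. Gnas, which encodes the stimulatory G protein alpha subunit, had 775 and 773 TPM, and the genes of the G12 and G13 alpha subunits, Gna12 and Gna13, had 38.5 and 35.1 TPM and 22.8 and 19.3 TPM. Dag1, which encodes dystroglycan, had 38.8 and 36.7 TPM, and Fgfr1, a growth factor receptor that FLRT proteins can bind, 19.2 and 17.0 TPM.

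Among the other adhesion G protein-coupled receptors, 11 of 12 genes had at least 1 TPM in both mice, and the exception was Adgrv1 at 1.04 and 0.64 TPM. The highest were the brain angiogenesis inhibitors Adgrb1, at 277 and 217 TPM, and Adgrb2, at 184 and 162 TPM. Adgrl1 thus lay below Adgrb1 in both mice and near Adgrb2, with ranges that overlapped those of Adgrb2. Adgrl4, which shares the latrophilin prefix but is known from blood vessels, had 11.2 and 8.93 TPM, below every latrophilin. Of the 11 genes whose mean count reached 100, none was 2-fold apart, and Celsr3, an atypical cadherin receptor, was the only one past a log2 ratio of 0.32 either way, lower in replicate 2 at -0.37 (-0.44 to -0.30).

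**Figure D5:**
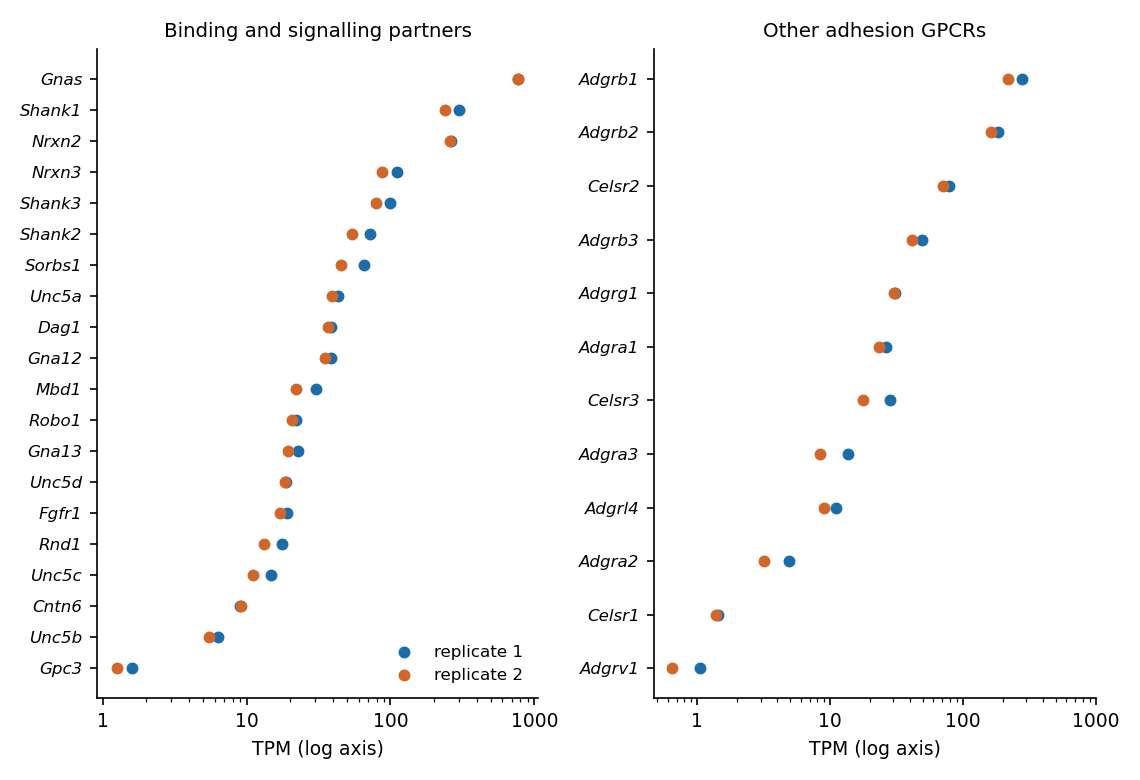
Level in TPM on a log axis of the genes reported by name from the 2 partner lists in replicate 1 (blue) and replicate 2 (orange), ordered by mean. Gnas, Shank1 and Nrxn2 are the highest partners shown, and Adgrb1 and Adgrb2 the highest of the other adhesion receptors.

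Other annotated genes overlap the members, and the strand setting of the counting is not given in the sources used here, so reads of overlapping genes on opposite strands cannot be assigned to one of them with certainty. The annotation held 34 such gene models, 22 of them on the opposite strand, and 19 had 0 counts in both libraries. The overlapping genes with the most counts enclose 2 FLRT genes, each of which lies whole within a larger gene on the other strand. Flrt3 lies inside Macrod2, which had 1296 and 1523 counts, or 138% of the Flrt3 counts. Flrt1 lies inside Macrod1, which had 172 and 204 counts, or 9.01% of the Flrt1 counts. Counts of Macrod2 and Macrod1 are over the whole gene, and the part that falls within Flrt3 or Flrt1 was not measured. The remaining models held few reads. Within Flrt2, on the same strand, the unspliced models Gm48015 had 68 and 57 counts and Gm48014 had 58 and 23 counts, with a ratio of -1.44 (-2.29 to -0.81) for Gm48014. Inside Adgrl3, Gm43594 had 53 and 32 counts and a ratio of -0.88 (-1.60 to -0.26). At the start of Tenm3, Gm19744 on the opposite strand had 24 and 26 counts, or 0.495% of the Tenm3 counts.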

How the data were processed

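The members and gene lists were chosen with earlier results of these data known. Groups and replicate numbers are those of the labels, where each library has its own animal but both share 1 donor record. Per the deposited notes, reads were quantified on mm10 with GENCODE M21. For the aligner, the counter and its strand setting, names and versions were not given in the sources used here. Each library came with a gene table and a first transcript table, which per the file headers hold expected counts and TPM as computed by the authors, and a second transcript table of the authors with estimated counts and TPM from another quantifier, summed by gene here. That reference is C57BL/6J, while the mice also carry CAST/EiJ alleles, and the effect was not tested.

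Levels are deposited TPM, and genes with at least 1 TPM in both libraries counted as expressed. Log2 ratios used rounded expected counts, library sizes by TMM over annotated genes (edgeR 4.0.16, R 4.3.3) and a prior count of 2, with a 95% interval by the exact Clopper-Pearson method on replicate 2's share of the reads. Reads carry no molecular identifiers, so intervals cover counting error only. The steps were tested on simulated data. Exon positions and sequences come from the GENCODE M21 transcripts. Exon identity was counted position by position, with 60 bases on each side. All members and list genes were named by rule, except 1 gene of the partner list that is counted but not reported here by name, with the 2 leading transcripts of each member and the overlapping models of at least 20 mean counts; further transcripts and exons were named after their values were seen. Alternatives were the second table, TPM over nuclear protein-coding genes, DESeq2 1.42.0 size factors, the spike-in total, TPM ratios, other minima and prior counts, and each mouse alone. Software was matplotlib 3.10.9, scipy 1.17.1, pandas 2.3.3 and numpy 2.4.6 under Python 3.11.15.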

Additional observations from a re-analysis of the deposited data

How the results depend on the processing

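All 10 members stayed expressed at TPM minima of 0.5 and 5, in the second transcript table and in each mouse alone, and none was 2-fold apart under any of the 6 alternatives run. Summed levels depended on the scale: over nuclear protein-coding genes only they were 755.9 TPM for latrophilins, 327.3 for teneurins and 140.5 for FLRT genes, and by the second quantifier 471.6, 187.6 and 89.72. In each mouse alone they ran from 316.6 to 354.2, 134.6 to 156.1 and 55.58 to 69.48. Of the 10 places in the order of levels, 4 held with CPM, 5 in the second table, 5 without transcripts under 1000 bases and 8 in each mouse alone. The teneurin sum without those transcripts was 109.6 TPM. A transcript led with at least 50% in 6 members, in 6 by the second table and in 8 by expected counts. The Tenm3 21-base exon was at 79.2% in the second table, the Adgrl1 15-base exon at 28.91% there and 16.62% on protein-coding transcripts, and the Adgrl3 15-base exon at 75.59% and 100%. That 100% arose because the coding spanning transcript without the exon was listed at 0 in the first transcript table. Of the overlapping models with at least 20 mean counts, 1 was 2-fold apart and 2 with the spike-in total. The alternatives without short transcripts and with protein-coding transcripts only were chosen after seeing the data. No paired analysis was possible because both libraries belong to 1 group. The 2 mice with 1 library each limit what can be said of spread.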
